A study of Mus musculus with 24 samples.

Results

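Livers of mice that had received extracellular vesicles (EVs) from MCF10A cells were compared with livers of mice that had received phosphate-buffered saline (PBS). These are 12 of the 24 libraries of the study, 6 per group, chosen by their treatment label. All came from female NOD scid gamma (NSG) mice, 8 weeks old per the labels. Tail-vein injections were given 2 times a week for 5 weeks, each with about 10 µg of EVs or with PBS, and livers were taken 2 days after the last one. The names of the MCF10A EV libraries hold 10A-pBABE, pBABE being a retroviral vector. The other 12 libraries, from mice given EVs of further cell lines, enter only the estimate of spread. PBS holds no vesicles, so an effect of MCF10A vesicles and one of injected vesicles in general cannot be told apart here. No label states outright that every library is from a mouse of its own, and any 2 from the same animal would make the p-values reflect technical spread.

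EVs are membrane-bound particles that cells release and that carry proteins, lipids and RNA to other cells. MCF10A is an immortalized, non-tumorigenic epithelial line of the human breast. NSG mice lack mature T, B and natural killer cells, while macrophages, which take up much of what is injected into blood, are still present. Hepatocytes make up most of the liver's mass. Their RNA content follows feeding, the circadian clock, growth hormone pulses, glucocorticoids and inflammatory cytokines.

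The 12 libraries held 23.0 to 29.2 M (mega) counts with PBS and 21.3 to 29.3 M with MCF10A EV. The tissue matched its label: the 20 hepatocyte markers summed to 178000 to 229000 CPM (counts scaled to a common library size, here on TMM-scaled library sizes). For lymphocytes, 9 of 17 markers, among them Cd3e and Ms4a1, had at most 5 counts in any of the 12 libraries. All 17 summed to 4.79 to 8.48 CPM over both groups, of which Ptcra had 1.73 to 5.44 CPM. In a principal component analysis of log2 CPM, component 1 held 24.6% of the variance, and on it every MCF10A EV library lay between -26.4 and -5.09. PBS replicate 5 lay with them at -16.4, and the other PBS replicates lay from 8.08 to 40.7, the highest being PBS replicate 3. Dbp, a transcription factor gene driven by the clock, was at 3.57 CPM in PBS replicate 5, at 39 to 118 CPM in the other PBS livers and at 2.2 to 23.9 CPM with MCF10A EV. Mki67, a marker of dividing cells, was at 16.3 CPM in PBS replicate 3 and at 1.93 to 5.29 CPM in the other PBS livers. The hour at which each liver was taken is not given in the labels. Results are therefore given with and without these 2 libraries where they differ. The 2 were picked after their levels were seen. Genes in which PBS replicate 5 lay with the EV libraries pass more easily without it, so such a pass is not separate support. No 2 libraries of a group agreed within sampling noise (chi-square per degree of freedom of 18.8 to 139 over 30 pairs).

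A small part of the liver transcriptome differed between the groups, and most of the differences were modest. Of 13773 genes tested, 147 passed an adjusted p of 0.05 (1.07%; edgeR's quasi-likelihood F test, Benjamini-Hochberg over all genes). Of these, 51 were higher with MCF10A EV (0.37%) and 96 lower (0.697%). Without the scaling factors the split was 43 higher against 470 lower, and the median log2 fold change of all genes was -0.094 in place of 0.008. The higher genes had a median log2 fold change of 0.61, and 24 of them changed by less than 1.5-fold. The lower genes had a median of -0.80, and 36 changed by less than 1.5-fold. At least a 2-fold change was seen in 8 higher and 30 lower genes. In each of the 147 genes all 6 MCF10A EV libraries lay on the same side of the PBS median. That is likely for genes called by the difference between these groups, and is not separate support. The groups did not overlap in 21 of the 51 higher (41.2%) and 26 of the 96 lower genes (27.1%). At an unadjusted p under 0.05 there were 2383 genes (17.3%), 1233 of them higher and 1150 lower.

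**Figure D1:**
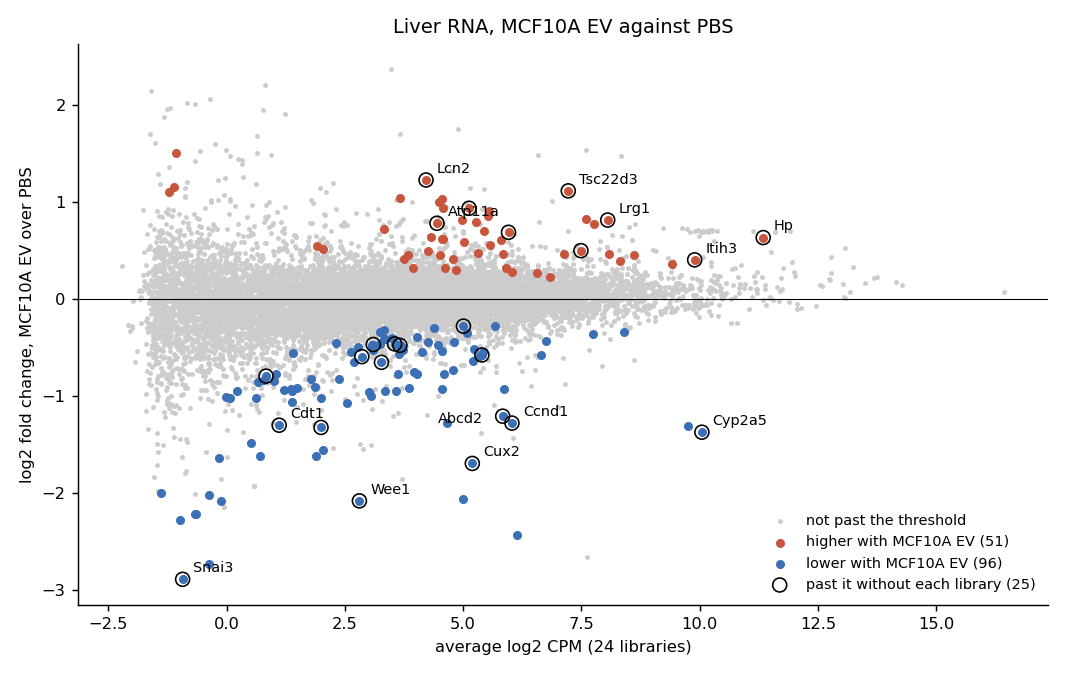
Average level of each of the 13773 tested genes (x axis, average log2 CPM over 24 libraries) against its log2 fold change, MCF10A EV over PBS (y axis); red and blue points passed the threshold, and circles mark the 25 that also passed without each of the 12 libraries in turn. The 96 lower genes lie at lower levels than the 51 higher genes, with median average log2 CPM of 3.24 and 5.13.

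Calls in each direction lay at different levels. Lower genes had a median average log2 CPM of 3.24 and higher genes of 5.13, beside 3.63 over all tested genes. In the fifth of genes with the lowest levels, 3 were higher and 21 lower past the threshold, and 42.6% of all genes there had a log2 fold change above 0. In the fifth with the highest levels, 22 were higher and 11 lower, and 61.7% lay above 0. The median log2 fold changes of these bins were -0.05 and 0.05. With total counts both were below 0, at -0.15 and -0.05.

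PBS replicates 3 and 5 weighed most on these counts. In 91 of the 147 genes (61.9%) PBS replicate 5 was the PBS library nearest to the MCF10A EV level, against 37.6% over all tested genes. PBS replicate 3 was the farthest in 84 (57.1%), against 27.9%. Without PBS replicate 5, 741 genes passed, including all 147. Without PBS replicate 3, 26 passed, all of them among the 147. Leaving out any 1 of the other 10 libraries gave 57 to 178. Without both, 340 passed (2.45%), among them 42 of the 51 higher and 80 of the 96 lower genes. Of genes named in the text, Cyp2a4, Egfr, Lrig1, Eif4ebp3, Id2, Tlr2, Ythdc1, Mki67 and Top2a were not (adjusted p from 0.0559 to 0.101). With only the 12 PBS and MCF10A EV libraries in the fit, 27 genes passed (0.204%), 23 of them among the 147. That fit takes the spread from fewer libraries, so less certainly, and without the other EV groups. Why fewer genes passed was not tested.

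**Figure D2:**
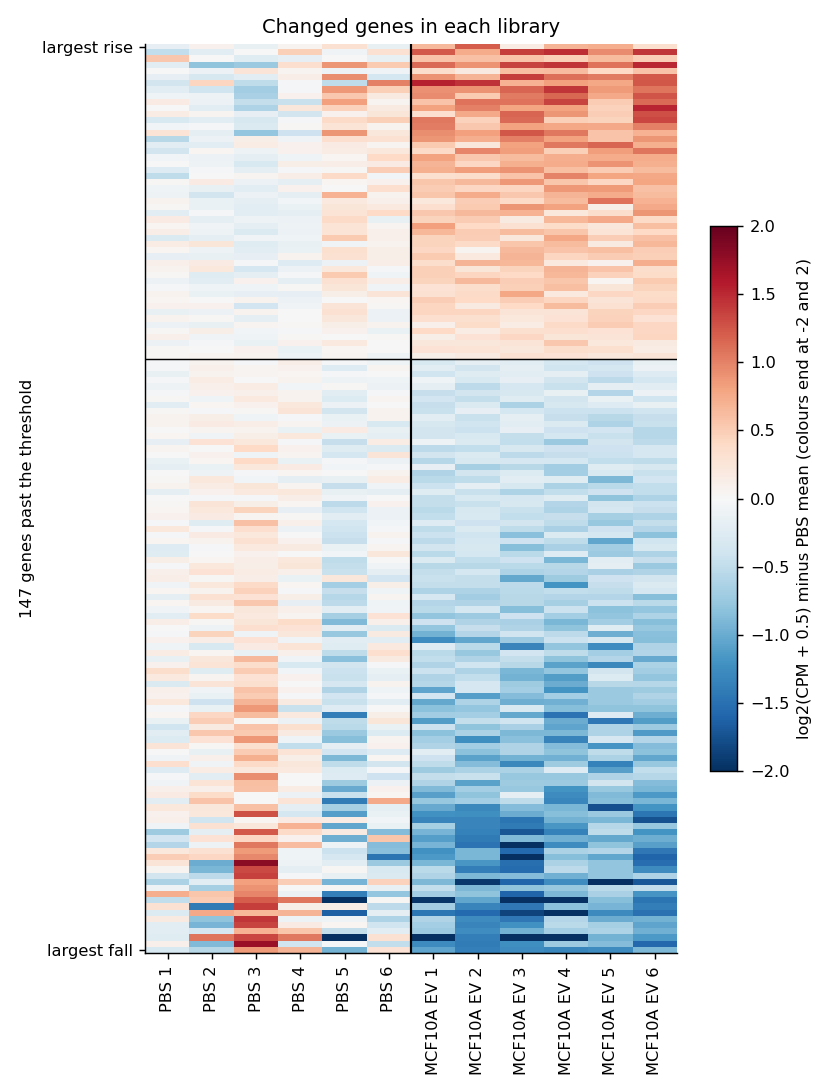
Each row is 1 of the 147 genes past the threshold, ordered from the largest rise to the largest fall, and each column 1 library; colour gives log2(CPM + 0.5) minus the mean of the 6 PBS libraries. PBS replicate 5 carries the colours of the MCF10A EV libraries in many rows, and PBS replicate 3 the opposite ones.

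**Figure D3:**
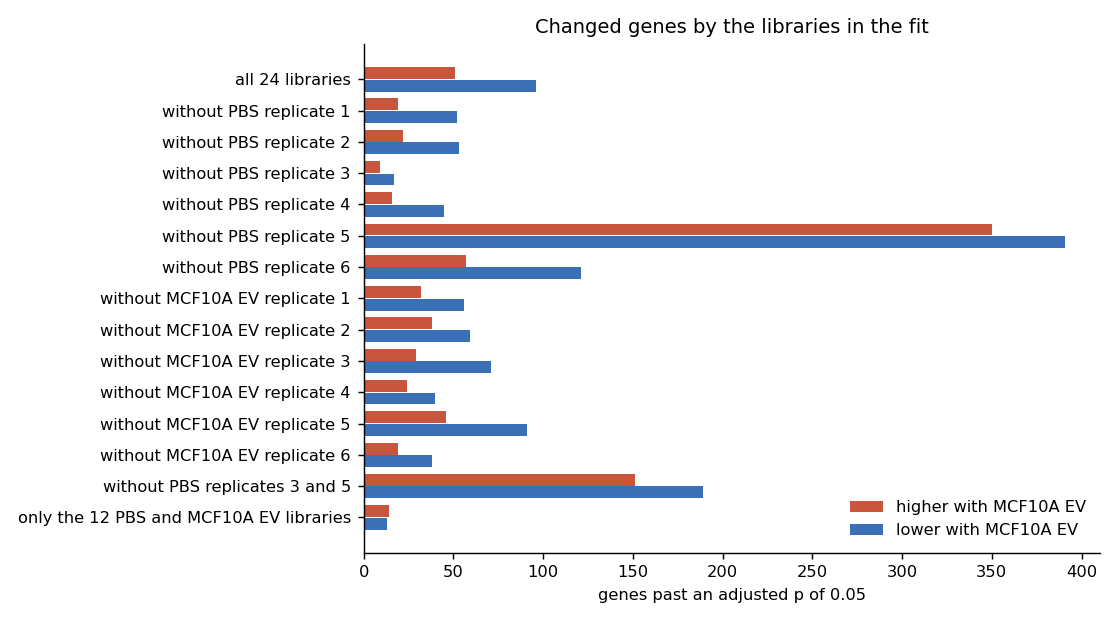
Number of genes past an adjusted p of 0.05 (x axis, from 0), higher in red and lower in blue, for the full fit and for fits with fewer libraries (y axis). The count is 147 in the full fit, 741 without PBS replicate 5 and 26 without PBS replicate 3.

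Of the 147 genes, 25 (0.182% of those tested) also passed without each of the 12 libraries in turn, 16 lower and 9 higher. These 25 are described first. The smallest adjusted p was shared by Ccnd1 and Abcd2. Ccnd1 encodes cyclin D1, the partner of CDK4 and CDK6 in G1. It was at 66.4 to 98.6 CPM (median 92.1) with PBS and at 26 to 46.2 CPM (median 35) with MCF10A EV. The groups did not overlap, which held for 124 of all genes tested (0.9%; 57 or 0.414% higher with MCF10A EV and 67 or 0.486% lower). The fall was 2.42-fold (log2 fold change -1.27, SE 0.18, adjusted p = 0.00328), and it also passed in the fit of 12 libraries (adjusted p = 0.00181). Of its exon bases, 23.4% lie opposite LTO1, so reads of that gene could be counted with it if strand was not used. In bulk tissue, fewer cells of a type and less RNA per cell cannot be told apart.

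Of the 16 stable falls, 3 were in genes that female mouse liver expresses more than male liver. Abcd2 encodes a peroxisomal transporter of very long-chain fatty acids. It was at 51 to 121 CPM (median 82.6) with PBS and at 23.6 to 44.2 CPM (median 37.6) with MCF10A EV, again without overlap (log2 fold change -1.20, SE 0.18, adjusted p = 0.00328). Cux2, a homeobox repressor gene that female mouse liver expresses and male liver does not, was at 26.3 to 89.6 CPM (median 56.5) with PBS and at 11.1 to 26.8 CPM (median 15.7) with MCF10A EV. Only the lowest PBS and the highest EV library overlapped (log2 fold change -1.69, SE 0.31, adjusted p = 0.0131). Cyp2a5, the coumarin 7-hydroxylase gene, was at 448 to 1700 CPM (median 763) with PBS and at 196 to 466 CPM (median 364) with MCF10A EV (log2 fold change -1.37, SE 0.26, adjusted p = 0.0144). It shares 53.5% of its 32-base words with other genes, and Cyp2a4 is a near-copy, so its reads are uncertain.

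Of the 30 female-biased genes tested, 4 fell and none rose, beside 0.697% of all genes that fell. The fourth was Cyp2a4 (log2 fold change -1.30, adjusted p = 0.0221), which did not pass without PBS replicate 3 or without MCF10A EV replicates 4 or 6 (adjusted p up to 0.0721). The median of the 30 was -0.20, and 27 had a log2 fold change below 0. Next in size were Acot3, an acyl-CoA thioesterase gene (-1.11, adjusted p = 0.0692), and Slc16a5 (-0.75, adjusted p = 0.0551), which did not pass. Another typical female gene, Cyp3a16, had a value near 0 (0.03, adjusted p = 0.906). This list, like all lists here, was chosen with earlier results of these data known, so its count is not separate support. Of 26 male-biased genes none passed (background 1.07%), while 1 rose and 2 fell without PBS replicates 3 and 5 (background 2.45% in either direction). Their median was 0.30, and 21 lay above 0 (19 with total counts), from Selenbp2 at 0.05 to Ces4a at 1.36. The lowest were the near-identical male genes Cyp4a12b (-1.54, adjusted p = 0.0502) and Cyp4a12a (-1.50, adjusted p = 0.0661). Male-pattern major urinary protein genes such as Mup20 (0.34, adjusted p = 0.576) are also multi-copy. In the growth hormone and IGF axis, which sets these sex patterns, none of 20 genes passed: Ghr was at 0.03, Stat5b at 0.12 and Igf1 at 0.10 in log2 fold change.

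Further stable falls were in genes of transcription, cell division and signalling. Rfx5, a subunit of the factor that binds promoters of MHC class II genes, was at 12.1 to 16.7 CPM (median 14.1) with PBS and at 7.71 to 11 CPM (median 8.9) with MCF10A EV. The groups did not overlap (log2 fold change -0.65, SE 0.11, adjusted p = 0.00851). Snai3, a zinc finger gene of the Snail family, had the largest log2 fold change, -2.88 (SE 0.51, adjusted p = 0.00975), at a low level of 0.261 to 2.14 CPM with PBS and 0.0708 to 0.286 CPM with MCF10A EV. Foxn2, a forkhead factor gene (-0.46), Map3k1, a kinase gene upstream of JNK (-0.46), Tdp2, which encodes a repair enzyme for topoisomerase adducts (-0.47), and Ipo5, a nuclear import receptor gene (-0.27), had small falls with no overlap between the groups. Foxn2, for example, was at 9.04 to 10.3 CPM with PBS and at 5.94 to 7.97 CPM with MCF10A EV (adjusted p = 0.0135). The others were Wee1 (-2.08), 4831426I19Rik (-1.32), Cdt1 (-1.30), Sgtb, a co-chaperone gene (-0.79), Usp28, a deubiquitinase gene (-0.59), and the clock repressor gene Cry2 (-0.57). In each of these PBS replicate 5 was the lowest PBS library. Wee1, the kinase gene that holds back mitosis, was at 1.74 CPM there, at 5.22 to 11.3 CPM in the other PBS livers and at 0.935 to 2.36 CPM with MCF10A EV.

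Among the stable rises were genes of secreted plasma proteins. Lrg1 encodes leucine-rich alpha-2-glycoprotein. It was at 158 to 234 CPM (median 193) with PBS and at 279 to 394 CPM (median 334) with MCF10A EV. The groups did not overlap (1.76-fold, log2 fold change 0.82, SE 0.13, adjusted p = 0.00436), and it passed in the fit of 12 libraries too (adjusted p = 0.00682). Itih3, a heavy chain gene of the inter-alpha-trypsin inhibitors, changed less but evenly, from 787 to 900 CPM with PBS to 1020 to 1210 CPM with MCF10A EV (log2 fold change 0.41, SE 0.07, adjusted p = 0.00851). The haptoglobin gene Hp rose by 0.64, and Lcn2, which encodes the siderophore-binding protein lipocalin 2, by 1.23. Lcn2 was at 5.94 to 12.1 CPM (median 8.27) with PBS and at 14.5 to 24.7 CPM (median 21.8) with MCF10A EV.

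The other stable rises had varied roles. Tsc22d3 (GILZ), induced by glucocorticoids, was at 30.1 to 98.3 CPM (median 56.3) with PBS and at 99.2 to 151 CPM (median 125) with MCF10A EV. The groups touched without overlap, PBS replicate 5 being the highest control (log2 fold change 1.12, SE 0.21, adjusted p = 0.0135). Atp11a, a phospholipid flippase gene of the plasma membrane, was at 13.8 to 18.4 CPM (median 17.1) with PBS and at 19.2 to 37 CPM (median 27.8) with MCF10A EV (0.79, SE 0.14, adjusted p = 0.0131). 1110038D17Rik, now named Gucd1, rose by 0.50 (adjusted p = 0.0051), from 125 to 185 CPM with PBS to 186 to 244 CPM with MCF10A EV. 1600002H07Rik, now named Tedc2, had 0.94 (adjusted p = 0.00712). D230025D16Rik had 0.69 (adjusted p = 0.0131). Of all 25 genes, 14 also passed both in the fit of 12 libraries and without PBS replicates 3 and 5. In the fit of 12 libraries Tsc22d3, Cyp2a5, 1110038D17Rik, Cdt1, Cry2, Map3k1, Tdp2, Ipo5, Usp28 and Sgtb did not pass (adjusted p from 0.0506 to 0.0736). Snai3 was not among the genes tested in that fit.

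**Figure D4:**
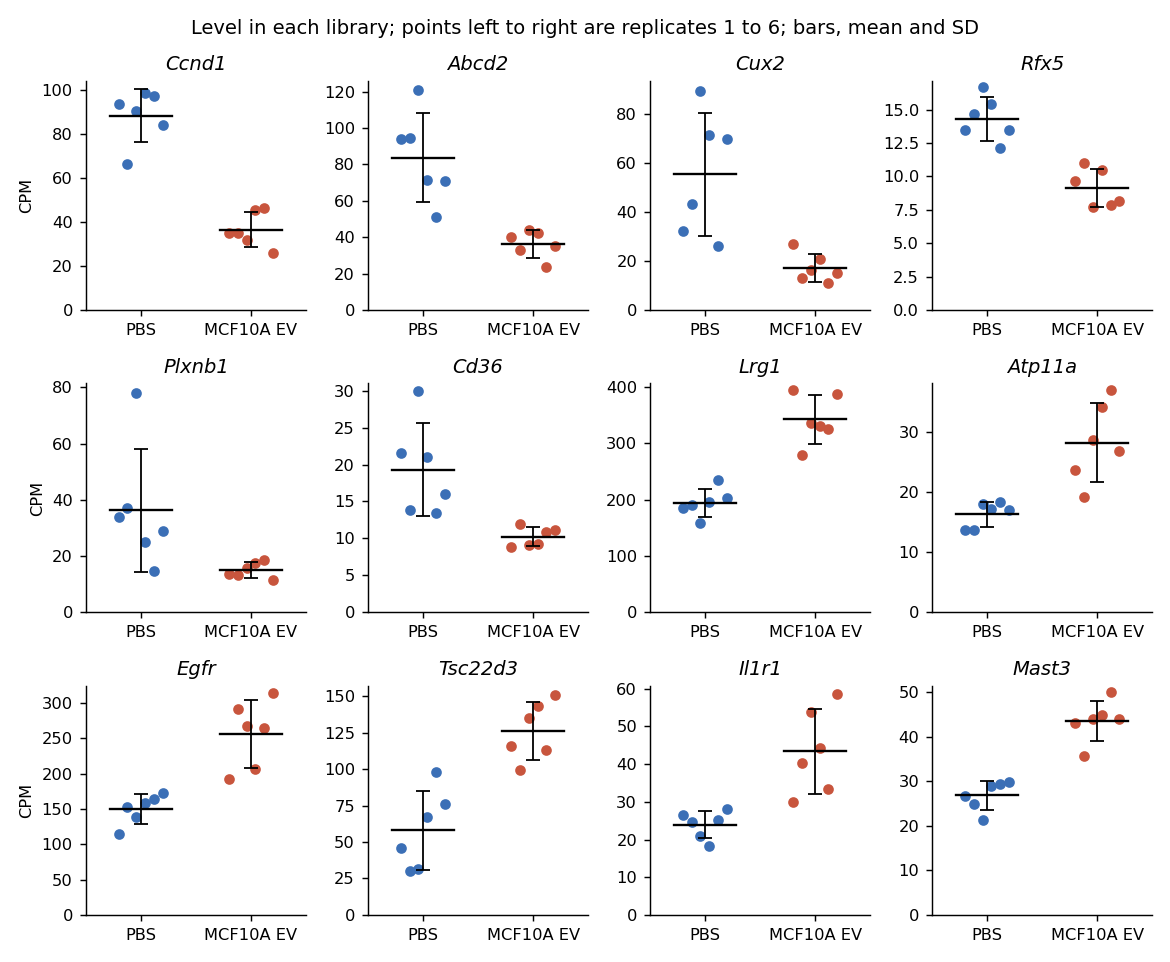
Level (y axis, CPM from 0) of 12 genes in the 6 PBS libraries (blue) and the 6 MCF10A EV libraries (red); points run from replicate 1 to 6 from left to right, and bars give mean and SD. Ccnd1, Abcd2, Rfx5, Cd36, Lrg1, Atp11a, Egfr, Tsc22d3, Il1r1 and Mast3 show no overlap between the groups, and Plxnb1 shows PBS replicate 3 at 78 CPM. Most calls did overlap: 21 of the 51 higher (41.2%) and 26 of the 96 lower genes (27.1%) did not.

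Promoters of 3 of these genes are shown because they hold letters of motifs read by STAT factors (TTCNNNGAA), by the glucocorticoid receptor (ACANNNTGT) or by E2F (TTTGGCGC). A match is a description of the letters, not a site. The sequences are from RefSeq on GRCm38.p6 and run 5′ to 3′ on the gene's strand, from 250 bases before to 50 bases after the start. Capitals mark the match. Tsc22d3 (chrX:140548522-140548821, minus strand) holds TTCNNNGAA, first base 207 bases before the start, in 1 of its 3 promoters. Lcn2 (chr2:32387690-32387989, minus strand) holds ACANNNTGT, first base 152 bases before the start. Cdt1, which licenses replication origins (chr8:122567765-122568064, plus strand), holds TTTGGCGC, first base 32 bases after the start.
Tsc22d3: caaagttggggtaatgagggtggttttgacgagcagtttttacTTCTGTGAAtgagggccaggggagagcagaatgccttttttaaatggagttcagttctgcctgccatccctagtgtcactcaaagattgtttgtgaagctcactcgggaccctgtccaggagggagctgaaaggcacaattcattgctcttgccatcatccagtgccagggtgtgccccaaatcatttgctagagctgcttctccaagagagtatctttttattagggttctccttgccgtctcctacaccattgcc
Lcn2: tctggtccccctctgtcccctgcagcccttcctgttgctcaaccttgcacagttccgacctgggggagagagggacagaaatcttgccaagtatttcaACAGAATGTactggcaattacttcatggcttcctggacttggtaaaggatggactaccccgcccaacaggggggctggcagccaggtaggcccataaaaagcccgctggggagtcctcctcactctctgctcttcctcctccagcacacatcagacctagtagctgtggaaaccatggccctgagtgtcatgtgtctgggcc
Cdt1: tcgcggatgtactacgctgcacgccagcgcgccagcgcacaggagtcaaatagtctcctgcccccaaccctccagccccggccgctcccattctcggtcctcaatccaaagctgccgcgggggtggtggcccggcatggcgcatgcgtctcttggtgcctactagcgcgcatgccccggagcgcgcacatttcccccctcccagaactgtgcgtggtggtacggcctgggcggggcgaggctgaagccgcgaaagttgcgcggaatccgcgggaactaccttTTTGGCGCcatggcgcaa
The motifs are common. Searched on both strands, TTCNNNGAA is in 8.3% of 32851 promoters, in 6 of the 52 promoters of higher genes and in 3 of the 98 promoters of lower genes. ACANNNTGT is in 6.85% of all, in 2 of the 52 and in 4 of the 98. The E2F words TTTCCCGC or TTTGGCGC are in 1.56% of all, in 1 of the 52 and in 5 of the 98. CACGTG, the E-box read by clock factors, is in 7.15% of all, in 5 of the 52 and in 8 of the 98. Promoters were matched for 38 of the 51 higher and 69 of the 96 lower genes.

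Receptor genes moved in both directions. Egfr, which encodes the receptor of epidermal growth factor, was at 115 to 172 CPM (median 155) with PBS and at 193 to 314 CPM (median 266) with MCF10A EV. The groups did not overlap (1.71-fold, log2 fold change 0.77, SE 0.18, adjusted p = 0.0389), but it passed in only 3 of the 12 fits that left out 1 library: it was lost without PBS replicate 1, 2, 3 or 4 or MCF10A EV replicate 2, 3, 4, 5 or 6 (adjusted p up to 0.103). Lrig1, a membrane protein gene whose product lowers EGF receptor levels, was also higher (0.42, adjusted p = 0.0496). Il1r1, the signalling receptor gene for interleukin 1, was at 18.3 to 28 CPM (median 25) with PBS and at 29.9 to 58.7 CPM (median 42.3) with MCF10A EV (0.86, SE 0.17, adjusted p = 0.0152; 0.0561 without PBS replicate 3). Sdc4, a heparan sulfate proteoglycan gene, rose by 0.45 (adjusted p = 0.0397), and passed in 3 of the 12 fits without 1 library.

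Other receptor genes fell. Plxnb1, the receptor gene of semaphorin 4D, was at 14.6 to 78 CPM (median 31.5) with PBS and at 11.4 to 18.8 CPM (median 14.7) with MCF10A EV. PBS replicate 3 was the highest and PBS replicate 5 the lowest, inside the EV range (-1.27, SE 0.26, adjusted p = 0.0189; up to 0.0575 without PBS replicate 3 or MCF10A EV replicate 6). Of 30 Wnt and pericentral genes 2 fell and none rose (background 0.697% lower). They were the Wnt receptor genes Fzd6 (-1.02, adjusted p = 0.0157) and Fzd4 (-0.77, adjusted p = 0.0383). Fzd6 was at 3.05 to 10.2 CPM with PBS and at 2.62 to 3.96 CPM with MCF10A EV. Without PBS replicates 3 and 5, 3 of the 30 fell (background 2.45% in either direction) and the median moved from -0.02 to -0.14. The pericentral Wnt target genes had no call in the full fit: Glul was at 0.28, Cyp2e1 at 0.13, Axin2 at -0.12 and Lgr5 at 0.02. Adora1, an adenosine receptor gene, fell by 0.93 on the log2 scale (adjusted p = 0.0222), and Smad2, which relays TGF-beta signals, by 0.39 (adjusted p = 0.0371). Smad2 was the only call among 40 TGF-beta, BMP and matrix genes. Gpr146, an orphan receptor gene (-0.92, adjusted p = 0.0383), and Lrp4, a co-receptor gene of the LDL receptor family (-0.72, adjusted p = 0.0255), also fell. Lrig1, Gpr146 and Lrp4 were chosen after their values were seen. Fzd6 was lost without PBS replicate 3 only (adjusted p = 0.0578), Lrp4 passed in 7 of the 12 fits without 1 library, Adora1 in 7, Gpr146 in 3, and Fzd4, Lrig1 and Smad2 in 2 each.

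Intracellular signalling and cytoskeletal genes showed a similar mixture. Of 43 actin cytoskeleton genes 2 rose and none fell (background 0.37% higher). Arhgef26, a guanine nucleotide exchange factor gene, was at 15.9 to 34.2 CPM (median 26.2) with PBS and at 34.1 to 72.1 CPM (median 43.4) with MCF10A EV (0.91, SE 0.18, adjusted p = 0.0152). Ablim3, an actin-binding LIM protein gene, was at 11.7 to 29.4 CPM (median 16.2) and 23.5 to 42.8 CPM (median 35.6) (0.94, SE 0.18, adjusted p = 0.0152). Without PBS replicate 3 neither passed (adjusted p = 0.0509 and 0.0561). Of Arhgef26, 21.6% of the exon bases lie opposite the antisense gene 9330121J05Rik. Outside that list, Wipf3, whose product binds WASP, fell (-0.96, adjusted p = 0.0177), as did Sipa1l2, a gene of a Rap GTPase-activating protein (-1.07, adjusted p = 0.0361). The kinase genes Mast3 (0.70, adjusted p = 0.0177) and Ip6k2, which makes inositol pyrophosphates (0.80, adjusted p = 0.0186), rose without overlap of the groups. Mast3 was at 21.4 to 29.8 CPM with PBS and at 35.8 to 50 CPM with MCF10A EV. It passed in the fit of 12 libraries (adjusted p = 0.00963) and in every fit without 1 library except that without PBS replicate 3 (adjusted p = 0.0658). Gadd45a, a growth arrest gene, was the only call of 29 p53 targets (-1.56, adjusted p = 0.033, background 0.697% lower). It was at 2.27 to 14.3 CPM with PBS and at 1.24 to 3.69 CPM with MCF10A EV. Without PBS replicates 3 and 5 the p53 list had 1 rise and 1 fall (background 2.45% in either direction). Eif4ebp3, an inhibitor of cap-dependent translation, was the only call of 22 brakes of translation and mTORC1 (1.03, adjusted p = 0.0397, background 0.37% higher). It shares 66.3% of its 32-base words with other genes, so its reads are uncertain. Sipa1l2 passed in 3, Gadd45a in 4 and Eif4ebp3 in 4 of the 12 fits without 1 library, and Wipf3 and Ip6k2 in all but that without PBS replicate 3 (adjusted p = 0.0584 and 0.0543).

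Lipid genes gave 1 rise and 1 fall. Of 37 genes of lipoproteins and lipid droplets, Angptl4, whose product inhibits lipoprotein lipase, rose, and Cd36, a fatty acid uptake receptor gene, fell (background 1.07%). Angptl4 was at 89.4 to 155 CPM (median 103) with PBS and at 152 to 282 CPM (median 194) with MCF10A EV (0.83, SE 0.18, adjusted p = 0.0268). Cd36 was at 13.4 to 29.9 CPM (median 18.5) with PBS and at 8.85 to 11.9 CPM (median 10.1) with MCF10A EV. Its groups did not overlap (-0.91, SE 0.20, adjusted p = 0.0255). Neither held against single libraries: Angptl4 passed in 5 of the 12 fits without 1 library (adjusted p up to 0.0795) and Cd36 in 6 (up to 0.0817). Other members lay close to the threshold without passing, such as Apoa4 (0.67, adjusted p = 0.0614) and Hilpda (0.60, adjusted p = 0.0855). Angptl4 was also the only call of 43 fatty acid oxidation and PPAR alpha targets, whose median was -0.04. No gene passed in the full fit among 25 lipogenesis genes, 26 cholesterol genes, 28 bile acid genes, 17 gluconeogenesis genes, 31 glycolysis genes, 56 amino acid and urea cycle genes, 56 xenobiotic genes or 30 NRF2 targets. Without PBS replicates 3 and 5 the glucose 6-phosphate dehydrogenase gene G6pdx, in the lipogenesis and NRF2 lists, passed (0.61, adjusted p = 0.0258). Of the genes of these lists Lpin1, a phosphatidate phosphatase gene, had the largest log2 fold change, 1.48 (adjusted p = 0.0657), from 48.1 to 281 CPM with PBS to 87.4 to 421 CPM with MCF10A EV. PBS replicate 6 was the highest control and MCF10A EV replicate 5 the lowest EV library.

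Transporter and junction genes outside the lists moved in both directions. Slc6a6, the taurine transporter gene, was at 107 to 141 CPM with PBS and at 81.2 to 98.4 CPM with MCF10A EV, without overlap (-0.43, SE 0.10, adjusted p = 0.0293). Slc30a1, the zinc exporter gene ZnT1, fell by 0.54 (adjusted p = 0.0152; 0.0575 without PBS replicate 3). Gjb2, the connexin 26 gene of gap junctions between hepatocytes, had -0.35 (adjusted p = 0.0327). The sugar transporter gene Slc45a3 rose (0.82, adjusted p = 0.039), with PBS replicate 5 at 48 CPM and the other PBS livers at 14.9 to 31.2 CPM. Slc6a6, Slc30a1 and Gjb2 were chosen after their values were seen. In the fits without 1 library Slc6a6 and Gjb2 passed in 6 of 12 and Slc45a3 in 3.

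Some of the rises were in genes of transcription and RNA handling. Banp, a gene of a nuclear DNA-binding protein, had 1.05 (adjusted p = 0.0273). Taf10, a subunit gene of TFIID, had 0.65 (adjusted p = 0.0474), Whsc1l1, a histone H3 lysine methyltransferase gene, 0.61 (adjusted p = 0.0221), and Tra2a, a splicing regulator gene, 0.62 (adjusted p = 0.0316). Whsc1l1 was at 36.6 to 47.8 CPM with PBS and at 48.4 to 88.9 CPM with MCF10A EV. Tra2a was at 28.7 CPM in PBS replicate 5, at 13.5 to 18.4 CPM in the other PBS livers and at 25.6 to 29.7 CPM with MCF10A EV. The RNA-binding protein genes Rbm14 (0.50, adjusted p = 0.0255), Sfpq (0.33, adjusted p = 0.0371) and Ythdc1 (0.30, adjusted p = 0.0392), chosen after their values were seen, were also higher. Falls in this class were Sp4, a GC-box factor gene (-0.91, adjusted p = 0.0157; 0.0578 without PBS replicate 3), and Id2, an inhibitor of helix-loop-helix factors (-0.57, adjusted p = 0.0298), both chosen after their values were seen. Id2 was at 111 to 169 CPM with PBS and at 70.4 to 112 CPM with MCF10A EV. Of Taf10, 45.9% of the exon bases lie opposite Ilk. Whsc1l1 passed in 8 of the 12 fits without 1 library, Id2 in 7, Rbm14 in 6, Banp and Tra2a in 5, Sfpq in 4, Taf10 in 3 and Ythdc1 in 2. None of 35 hepatocyte transcription factor genes passed (background 1.07%).

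Some genes of immunity fell. Of 28 NF-kappa B and cytokine genes, Tlr2, a receptor gene for bacterial lipoproteins, and Cxcl12, a chemokine gene, fell and none rose (background 0.697% lower). Tlr2 was at 2.01 to 3.39 CPM with PBS and at 1.26 to 2.09 CPM with MCF10A EV (-0.76, adjusted p = 0.0443). Cxcl12 was at 309 to 384 CPM and 238 to 328 CPM (-0.33, adjusted p = 0.0496). Each passed in 3 of the 12 fits without 1 library. The T-cell ligand genes Cd274, which encodes PD-L1 (-0.84, adjusted p = 0.0273), and Icosl (-1.01, adjusted p = 0.0361) also fell, at 1.17 to 3.94 CPM and 0.561 to 2.91 CPM over both groups. They were chosen after their values were seen, and passed in 5 and 4 of those 12 fits. None of 51 interferon-stimulated genes passed, and their median was -0.09, with 18 above 0. Without PBS replicates 3 and 5 the median was 0.08, with 28 above 0 and again none past the threshold. Cxcl10 came nearest (-1.10, adjusted p = 0.0551). Of 50 complement and coagulation genes none passed, with C8a nearest (0.45, adjusted p = 0.0515; 0.0359 without PBS replicates 3 and 5). Their median was 0.10, beside 0.008 over all genes. With total counts it was -0.001, beside -0.094 over all genes, and 25 of 50 lay above 0 in place of 40.

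The cytosolic ribosomal protein genes, which supply the subunits of the translation machinery, lay above 0 together without any passing the test (background 1.07%). All 81 had a log2 fold change above 0, from 0.09 to 0.32, with a median of 0.22, beside 0.008 over all genes. Their summed level was 7130 to 9170 CPM (median 8020) with PBS and 7950 to 10500 CPM (median 9580) with MCF10A EV, so the groups overlapped and 4 of 6 EV libraries lay above every PBS library. All 81 stayed above 0 without each library in turn (medians 0.18 to 0.26), and 79 did with total counts (median 0.13). The median was 0.30 without PBS replicates 3 and 5, where Rps12 passed (0.45, adjusted p = 0.0472). Ribosomal protein genes have many near-identical pseudogenes, and their reads are uncertain. Of 76 nuclear oxidative phosphorylation genes 71 lay above 0 (median 0.16) and none passed. With total counts 55 lay above 0 (median 0.06, beside -0.094 over all genes).

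Most chaperone genes also lay above 0. Of 41 genes of endoplasmic reticulum folding and the unfolded protein response, 40 lay above 0 (median 0.23), and 31 with total counts. Calr, the calreticulin gene, was the only call (background 0.37% higher). It was at 571 to 781 CPM (median 613) with PBS and at 759 to 859 CPM (median 847) with MCF10A EV (0.37, SE 0.09, adjusted p = 0.0383). Calr passed in 2 of the 12 fits without 1 library. PBS replicate 5 was the highest control. The lumenal chaperone gene Hspa5 (BiP) had 0.43 (adjusted p = 0.152), with PBS replicate 5 at 1020.0 CPM, the other PBS livers at 413 to 515 CPM and MCF10A EV at 693 to 907 CPM. Without PBS replicates 3 and 5 it passed (0.68, adjusted p = 0.00125), as 1 of 15 genes of the list that then rose (median 0.34, background 2.45% in either direction). For Hspa5 that fit leaves out the highest control. The summed level of the list was 6280 to 9050 CPM with PBS and 7880 to 8730 CPM with MCF10A EV. Of 36 heat shock chaperone genes none passed, 32 lay above 0 (25 with total counts), and the median was 0.21. Without PBS replicates 3 and 5, 6 of them rose (median 0.28). Hspa8, the constitutive HSC70 gene, was at 1710 CPM in PBS replicate 5, at 754 to 979 CPM in the other PBS livers and at 1360 to 1810 CPM with MCF10A EV (0.61, adjusted p = 0.075; 0.0056 without PBS replicates 3 and 5). Of 31 proteasome genes 28 lay above 0 (median 0.10), but 14 with total counts (median -0.002, beside -0.094 over all genes).

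**Figure D5:**
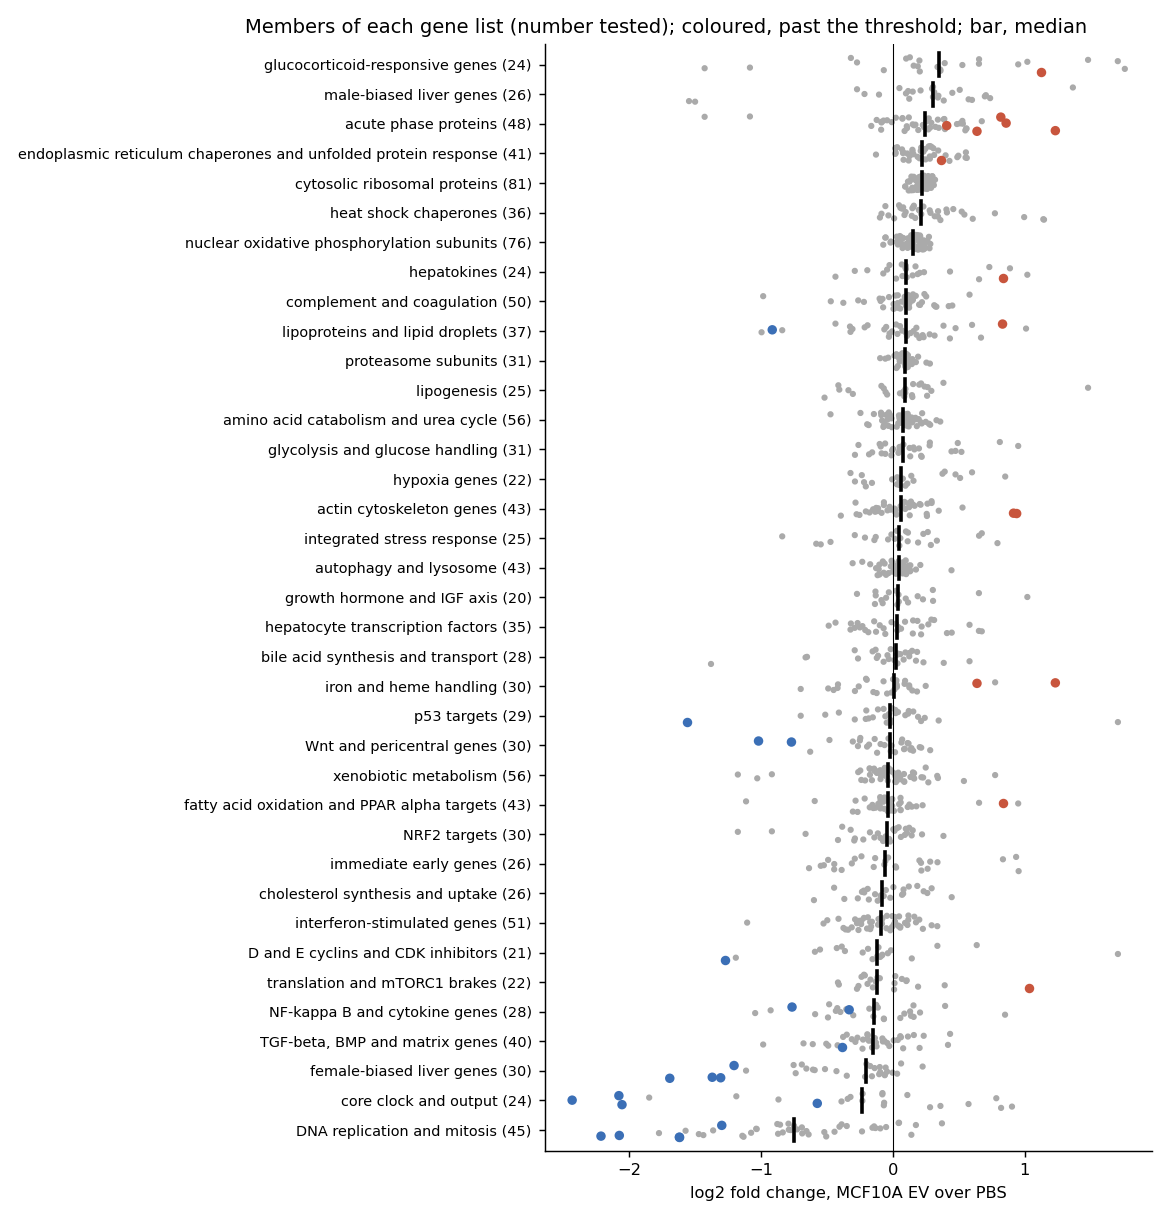
Log2 fold change, MCF10A EV over PBS (x axis), of each tested member of the gene lists (y axis, number tested in brackets); red and blue points passed the threshold higher or lower, and the black bar is the list's median. The 81 ribosomal protein genes form a narrow group above 0 with no coloured point, and the 30 female-biased genes lie mostly below 0 with 4 blue points.

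Of 24 glucocorticoid-responsive genes Tsc22d3 alone passed, 19 lay above 0 (18 with total counts) and the median was 0.35. Members with larger values had wide spreads: Zbtb16, a zinc finger gene, had 1.76 (adjusted p = 0.131), with PBS replicate 5 at 43.3 CPM, the other PBS livers at 3.35 to 6.08 CPM and MCF10A EV at 10.6 to 65 CPM. It passed without PBS replicates 3 and 5 (adjusted p = 0.00324). Pdk4, which blocks pyruvate oxidation, had 0.95 (adjusted p = 0.404), and Igfbp1, an IGF-binding protein gene, had 1.02 (adjusted p = 0.41). The metallothionein genes Mt1 (-1.43, adjusted p = 0.124) and Mt2 (-1.08, adjusted p = 0.25) had values of the opposite sign, and Nr3c1, the receptor gene itself, had -0.32 (adjusted p = 0.103). Igfbp1 was at 20 to 78.7 CPM with PBS and at 22.5 to 188 CPM with MCF10A EV. In other lists, 5 of 48 acute phase genes rose (Hp, Lcn2, Lrg1, Itih3 and Il1r1; background 0.37% higher), 5 of 45 DNA replication and mitosis genes fell, and 4 of 24 clock and output genes fell (background 0.697% lower). Without PBS replicates 3 and 5, where 2.45% of all genes passed in either direction, the acute phase count was again 5. The replication list then had 1 fall, and its median moved from -0.75 to -0.37. The clock list then had 3 rises and 9 falls. Il1r1, counted in the acute phase list, encodes a receptor and not a plasma protein. All gene lists were chosen with earlier results of these data known, so their counts are not separate support. Of 21 genes of D and E cyclins and CDK inhibitors, Ccnd1 was the only call in the full fit (background 0.697% lower). The largest rise of that list, at a log2 fold change of 1.71, did not pass there. Without PBS replicates 3 and 5 the list had 1 rise and 1 fall (background 2.45% in either direction). Of the 147 genes, 40 higher and 75 lower ones were in none of the lists.

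Marker levels of the liver's cell types did not differ past the threshold. For 11 cell types, the summed CPM of the markers was compared by an exact two-sided permutation test of 6 against 6 libraries, adjusted over the 11. Adjusted p ranged from 0.262 to 0.916. Hepatocyte markers summed to 180000 to 211000 CPM with PBS and 178000 to 229000 CPM with MCF10A EV (ratio 1.1, exact p = 0.0541). Kupffer cell and macrophage markers summed to 677 to 784 CPM and 623 to 751 CPM (ratio 0.936, exact p = 0.0952), with Emr1, the F4/80 gene, at 7.88 to 13.2 and 5.08 to 8.68 CPM (-0.53, adjusted p = 0.265). The log2 fold changes of the 24 markers ran from that of Emr1, the lowest, to 0.98 for Itgam. Their median was -0.02, with 11 above 0. The part of Kupffer cells and macrophages in the falls of Tlr2, Cd274 and Icosl was not tested. Cholangiocyte markers summed to 69 to 102 CPM and 56.6 to 85.3 CPM (ratio 0.835, exact p = 0.0628). No single marker of the 11 lists passed the gene test. Markers with at most 5 counts in any library were 6 of 12 for muscle, such as Ckm. They were 9 of 19 for mesothelium, fat and pancreas, such as Adipoq, Ins2 and Prss1. The 12 muscle markers summed to 8.14 to 19.9 CPM over both groups, and the 19 others to 908 to 1900 CPM. Mesothelial Upk3b and Msln reached at most 11.2 and 5.7 CPM, so other members make up most of the latter sum. Which cells that sum stems from was not tested. Mesothelial markers stood high in MCF10A EV replicates 1 and 2: Upk3b was at 11.2 and 5.8 CPM there, and at 0.218 to 1.73 CPM in the other 10 libraries.

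Several changed genes overlap each other, so their calls are not independent if strand was not used. The neighbours Adora1 and Mybph lie on opposite strands, share 20.1% and 49.9% of their exon bases, and both fell. So do Gadd45a and E230016M11Rik (19.1% of Gadd45a), which both fell, and B3gnt9-ps and D230025D16Rik (16.5% of B3gnt9-ps), which both rose. Gm15350, which rose (1.11, adjusted p = 0.0446), lies opposite Atp11a over 32.1% of its exon bases, and B230398E01Rik lies opposite 26.8% of those of Rfx5. Mir22, at 0.914 to 1.47 CPM with PBS and 0.304 to 0.935 CPM with MCF10A EV (adjusted p = 0.0221), lies wholly within its host transcript Mir22hg, so its counts may be reads of that transcript and not of the mature microRNA. Serpina11, a liver serpin gene that rose (0.47, adjusted p = 0.0225), shares 40.8% of its exon bases with the model Gm28577 on the same strand. E230016M11Rik, Gm15350 and Mir22 were chosen after their values were seen.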

How the data were processed

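Liver mRNA was sequenced as stranded poly(A) libraries, per the labels' protocols. The authors deposited whole-number counts per gene symbol. bcl2fastq 2.18.0.12, TopHat2 and the mouse build mm9 are named in the submitters' processing notes, with no role stated. No source used here names the counting tool, its annotation or its strand setting. Reads of overlapping genes may thus have been shared.

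Of 23240 rows, 27 that share 11 symbols were left out (0.0744% of counts). The 24 libraries were fitted together with edgeR 4.0.16 (R 4.3.3): filterByExpr, TMM scaling, 1 mean per group and the quasi-likelihood F test, contrast MCF10A EV minus PBS, Benjamini-Hochberg over 13773 genes, threshold 0.05. The SE is the log2 fold change divided by the square root of F, and levels are CPM on TMM-scaled library sizes. For the 12 libraries of the other EV groups, column names and titles name the groups differently, which leaves the same sets of 6 and so the same spread. The scripts were tested on simulated counts. Alternatives were DESeq2 1.42.0, limma 3.58.1 (voom), other scalings and filters, fewer libraries and a replicate block. Cell type sums were compared by exact permutation over samples, with scipy 1.17.1.

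The comparison, the gene lists and the rule for named genes were chosen with earlier results of these data known. The rule takes the 20 largest rises and falls past the threshold with average log2 CPM of at least 1, every gene that passes without each library in turn, up to 4 called members of each list (or its 2 smallest p-values), the 10 most abundant calls, and Ccnd1, Hp, Lcn2 and Tsc22d3. Calls named outside it are said to be chosen after their values were seen. Genes named without a call, outside the rule, are list members that were also chosen after their values were seen. Exon overlap and shared 32-base words were computed on GENCODE M21 (208 of 210 genes matched), and promoters are RefSeq's on GRCm38.p6. No coordinates of these builds were joined to the counts, which were matched by symbol.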

Additional observations from a re-analysis of the deposited data

Results flagged for a closer look

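In 27 of 256 sets of 6 libraries (10.5%), 1 library stood apart from the other 5 by Dixon's criterion for the gap over the range. Chance gives about 1 in 20 for independent sets of normally distributed values. These were CPM without a log, of genes that vary together, so an excess over chance was not tested. PBS replicates 3, 5 and 6 held 19 of them.

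PBS replicate 5 was the highest PBS library for Hspa8 (1710 CPM, next 979), Banp (13.1, next 7.35), Tra2a (28.7, next 18.4), P4ha1, a collagen prolyl hydroxylase gene (20.9, next 11.5), and Gsta1, a glutathione transferase gene (39.1, next 17.0). It was the lowest for the glucocorticoid receptor gene Nr3c1 (57.6, next 75.6) and the splicing factor gene Srsf5 (97.7, next 140.0). For Hspa8, Banp, Tra2a, P4ha1 and Nr3c1 its level lay within the MCF10A EV range, and for Gsta1 and Srsf5 it did not.

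PBS replicate 3 was the highest for the division genes Mki67 (16.3 CPM, next 5.29) and Top2a (5.3, next 1.91), and for Plxnb1 (78.0, next 37.0), Krt23, a keratin gene (11.9, next 4.29), Map3k1 (18.6, next 14.4) and Ppbp, a platelet gene (1.8, next 0.863). PBS replicate 6 was the highest for Lpin1 (281 CPM, next 130.0), Myh11, a smooth muscle gene (8.59, next 2.91), Ctgf (7.4, next 3.97), Pfkfb2 (41.0, next 31.0), D230025D16Rik (59.3, next 42.6) and B3gnt9-ps (9.03, next 6.88). PBS replicate 1 was the highest for the myeloid integrin gene Itgam (3.24, next 1.19).

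With MCF10A EV, replicate 3 was the highest for Insig2 (516 CPM, next 406) and Mybph (2.69, next 1.59) and the lowest for Haao (417, next 491). Replicate 5 was the highest for Hspa8 (1810, next 1520) and Ppbp (1.6, next 0.294), replicate 2 for Smad2 (15.6, next 13.6) and replicate 4 for Sox9 (13.3, next 7.11).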

How the results depend on the processing

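The number of calls depended on the libraries and the tool more than on the filter. Beside 147 genes (51 higher, 96 lower), DESeq2 gave 414 (158 higher, 256 lower), the 12 PBS and MCF10A EV libraries alone 27 (14 and 13), total counts 513 (43 and 470), and the fit without PBS replicates 3 and 5 340 (151 and 189). limma-voom with sample quality weights gave 837 (441 and 396). It and the fit without PBS replicates 3 and 5 were chosen after seeing the data. Leaving out 1 library gave 26 (PBS replicate 3) to 741 (PBS replicate 5), with 9 to 350 higher and 17 to 391 lower. Without PBS replicates 1, 2 or 4 the totals were 71, 75 and 61, and without MCF10A EV replicates 1, 2, 4 or 6 they were 88, 97, 64 and 57. DESeq2 shared 146 of the 147 genes with the same sign. limma-voom, RLE factors, both other filters and robust moderation stayed within 1.5 times of the total. The replicate numbers of the labels did not pair the libraries (correlations of -0.245 to 0.279, and 1 of 6 EV libraries correlated best with its own number), and a replicate block gave 165 calls (66 higher, 99 lower). No named gene past the threshold reversed in sign.

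The difference in summed marker level, EV minus PBS, had no stable sign for 5 cell types that did not pass any test. Leaving out 1 library gave -17.1 to 19.9 CPM for endothelium (-5.51 with all), -46.2 to 16.4 for stellate cells (-6.91), -66.5 to 488 for erythroid cells (223), -2.15 to 0.201 for muscle (-1.4) and -80.5 to 117 for mesothelium, fat and pancreas (18.1). Acta1 (0.08) was at -0.0152 on the log2 scale with total counts, and Cd79b (-0.08) at -0.2357 to 0.0721 without 1 library. Depth limits precision most in genes of few counts: 3 of the 51 higher and 18 of the 96 lower genes had an average log2 CPM under 1.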
